A study of Homo sapiens with 12 samples.

Results

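The RAB small GTPases are the largest branch of the RAS superfamily. Their members were taken here as the protein-coding genes whose symbol is RAB, digits and an optional single letter. This gave 63 genes of the 60675 gene IDs in the count table, 19586 of which were protein-coding. RNA was sequenced from SW1783, an established human astrocytoma line, in 4 groups of 3 libraries, all taken 24 h after treatment. The vehicle cells received PBS with 2% DMSO, and the others a water extract of Aconitum carmichaeli Debeaux (ACD) at 20, 100 or 500 µg/mL, here the low, medium and high doses. By the study's methods the extract stock was made in the vehicle's solvent. Titles and treatment labels name ACD, whereas the protocol text given with the samples describes another herb, Poria cocos, and the name of the extract rests on the former. The labels do not say whether the libraries of a group came from separate cultures, so the p-values measure only the spread between these samples, which may be technical. All libraries come from a single cell line. The family was taken up after the fall of RAB7B at the high dose had been seen, so RAB7B is described here without a test.

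A RAB protein is a molecular switch on membranes. Bound to GTP it recruits effectors that bud, move, tether and fuse vesicles, and each compartment of the secretory and endocytic routes carries its own RABs. Activators (GEFs) load a RAB with GTP, inactivators (GAPs) speed up GTP hydrolysis, and a lipid tail added by prenylation anchors the protein in the membrane. In glial cells RABs serve, among other tasks, receptor recycling, lysosomal breakdown and the release of vesicles. The results below are transcript levels and say nothing about how much of a RAB protein was active.

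Some 54 of the 63 genes had a mean normalised count of at least 10 over all libraries, 44 of at least 100 and 23 of at least 1000. A normalised count is the library's count divided by its size factor. RAB19 was at 0 in every library, and 8 more had a mean under 10: RAB3C, RAB6C, RAB6D, RAB17, RAB25, RAB39A, RAB41 and RAB44. Per kilobase of exon, the 5 highest genes in vehicle cells were RAB1B at 1942 ± 79.5 normalised counts per kb (mean ± SD, n = 3), RAB5C at 1488 ± 10.2, RAB1A at 890.1 ± 4.79, RAB10 at 876 ± 14.5 and RAB13 at 874 ± 18.01. RAB1A and RAB1B act between the endoplasmic reticulum (ER) and the Golgi, RAB5C on early endosomes, and RAB10 and RAB13 in delivery to the cell surface. RAB1B and RAB5C stood apart from the rest, while the levels of RAB1A, RAB10 and RAB13 did not differ beyond their spread. Read sharing touches some of these levels: 43.8% of the exon bases of RAB1B and 22.9% of those of RAB1A overlap a gene on the opposite strand, and 28.8% of RAB5C and 24.8% of RAB13 a gene on the same strand. Summed over the family, the normalised count was 60096 ± 163 in vehicle, 60853 ± 148 in low dose, 60054 ± 396 in medium dose and 64148 ± 299 in high dose libraries. As a share of all counts the family held 0.297% in vehicle, 0.293% with the low, 0.275% with the medium and 0.293% with the high dose, so its share was not higher at the high dose.

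At the high dose, 13 of the 55 RAB genes tested were called, with an adjusted p under 0.05 and a fold change over 1.5 in DESeq2's Wald test. A set of 6 rose, namely RAB39B, RAB33A, RAB32, RAB33B, RAB43 and RAB5A. Another 6 fell, namely RAB37, RAB30, RAB20, RAB15, RAB9B and RAB40B, and RAB7B was lower as well. Without RAB7B, whose fall led to the choice of the family, 12 of 54 were called. Counts over the whole family below include RAB7B unless given without it. Among all 19453 genes tested, 18.2% were called, 8.66% higher and 9.57% lower. Smaller shifts were common: 41 of the 55 had an adjusted p under 0.05 at any fold, 24 higher and 17 lower. Of all genes 46.5% had one, 23.9% higher and 22.6% lower. Most RAB genes are well expressed, so this count is better read at a mean of at least 100, where it stood at 38 of 44 against 67.3% of all. RAB39B, under 100 in vehicle, reached that mean through its medium and high dose libraries. There, 10 of the 44 also passed the fold threshold, against 19.2%. In 41 of these 44 genes the high and vehicle libraries did not overlap, as in 76.9% of all genes at that level. The median log2 fold change over the 54 RAB genes with a mean of at least 10 was 0.11, beside 0.0023 over all 15282 such genes. RAB33A passed that filter only through its high dose libraries (mean 28.2, beside 4.07 in vehicle), so the median is a description of the genes that passed. In bulk RNA, fewer cells expressing a gene and less RNA per cell cannot be told apart.

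**Figure D1:**
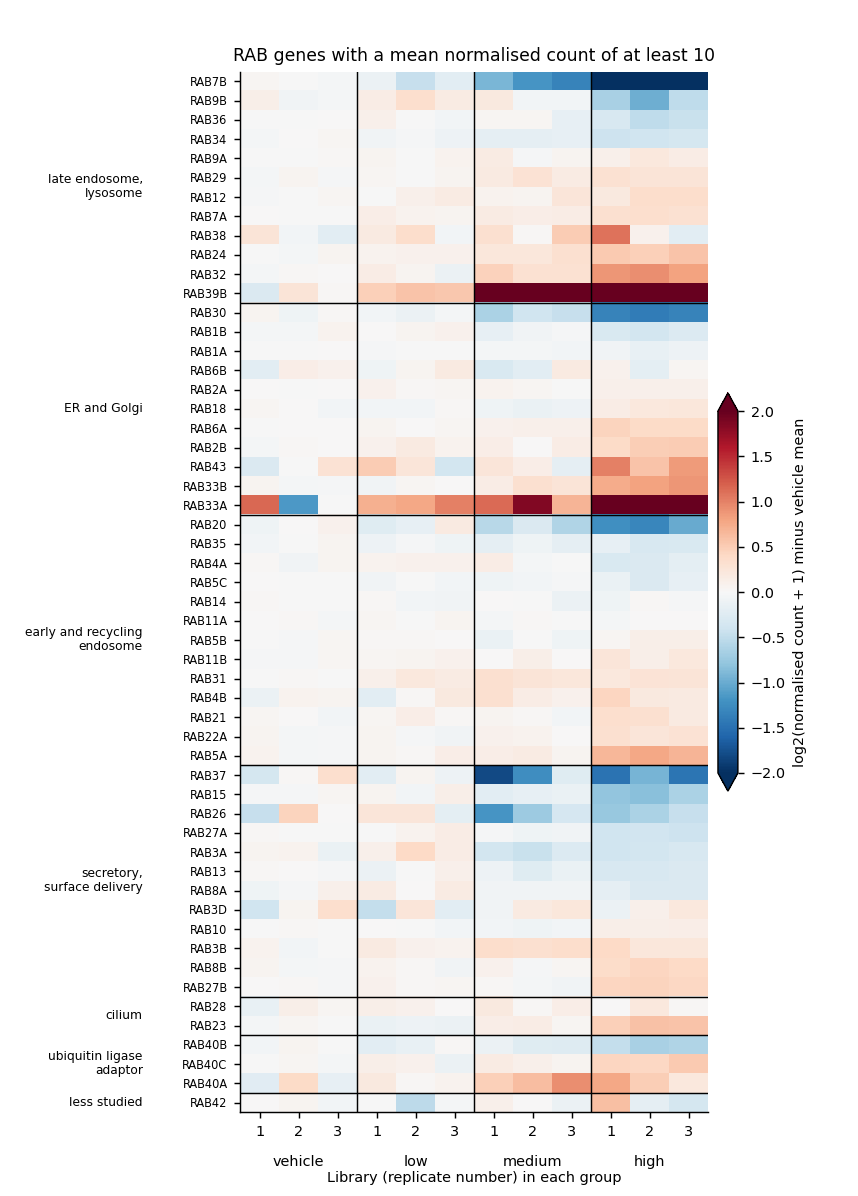
Change of each of the 54 RAB genes whose mean normalised count was at least 10 in each of the 12 libraries, as log2(normalised count + 1) minus the vehicle mean of that value. Rows are genes grouped by role, columns are libraries by group, and the colour scale ends at 2 in either direction, past which RAB39B, RAB33A and RAB7B lie in the high dose libraries and RAB39B also in the medium dose libraries. Most of the deep colours stand in the high dose columns, in both directions and in most of the roles.

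RAB7B and RAB39B, the genes with the largest fall and rise at the high dose, were both placed in the late endosome and lysosome group. As the fall of RAB7B led to the choice of the family, nothing is read from this about the group. RAB7B, a relative of RAB7A that acts in transport between endosomes and the Golgi, lies on chromosome 1 (ENSG00000276600, chr1:205976740-206003461, minus strand). Its normalised counts were 680.4, 659.7 and 647 in the vehicle libraries, 608, 483 and 570.3 in the low dose, 350.1, 291 and 263 in the medium dose and 70.6, 64.9 and 59.9 in the high dose libraries. The 4 groups did not overlap and were ordered by dose, the highest dose lowest. The level at the high dose was 10.2-fold below vehicle (log2 fold change -3.35, SE 0.14), and at the medium dose 2.21-fold below (log2 fold change -1.14, SE 0.11). At the low dose the log2 fold change was -0.26 (SE 0.11). These values are a description, since they led to the choice of the family.

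RAB7A, which drives the fusion of late endosomes with lysosomes and is the closest relative of RAB7B, moved a little the other way. It had 2627, 2613 and 2601 normalised counts in vehicle, 2857, 2753 and 2714 with the low, 2924, 2879.8 and 2892 with the medium and 3248, 3308 and 3241 with the high dose. Each dosed library lay above every vehicle library. The change at the high dose (log2 fold change 0.32, SE 0.0355, adjusted p = 1.39e-18) passed the test without reaching 1.5-fold. The starts of both genes are set side by side because the pair parted so widely. The 250 bases before each start, from RefSeq on GRCh38.p14, are given 5′ to 3′ on the gene's own strand. For RAB7B this is chr1:206003396-206003645, minus strand (the first of its 2 listed starts), and for RAB7A chr3:128725933-128726182, plus strand.
RAB7B: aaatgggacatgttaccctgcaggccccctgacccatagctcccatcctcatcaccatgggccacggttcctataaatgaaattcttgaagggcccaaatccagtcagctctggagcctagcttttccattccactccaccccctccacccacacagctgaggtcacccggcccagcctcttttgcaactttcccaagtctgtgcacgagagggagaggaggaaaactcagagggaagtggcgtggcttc
RAB7A: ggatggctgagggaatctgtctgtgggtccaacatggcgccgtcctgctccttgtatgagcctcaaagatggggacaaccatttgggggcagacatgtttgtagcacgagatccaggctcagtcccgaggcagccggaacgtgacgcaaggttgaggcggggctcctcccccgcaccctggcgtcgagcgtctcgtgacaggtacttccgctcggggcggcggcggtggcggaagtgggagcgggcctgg
The RAB7B window held 55.6% G and C and 4 CpG pairs, and the RAB7A window 64.8% and 20 pairs. The median over 27305 promoters was 58% G and C, and over the 50 matched RAB promoters 64.8%. Of the motifs searched on both strands, TGACGTCA (the cyclic AMP response element, found in 1.76% of all promoters), TGATGNAA (a C/EBP-ATF site, in 3.19%), CACGTG (the E-box, in 6.49%) and that E-box with GT before and AC after it (the CLEAR element of lysosomal genes, in 0.33%), neither window held any. The core TGACG, contained in TGACGTCA and found in 21.7% of all promoters and 18 of the 50 RAB promoters, was in the RAB7A window and not in the RAB7B window.

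RAB39B, a RAB of endosomes and autophagy that is known for inherited intellectual disability and early parkinsonism, showed the largest rise (ENSG00000155961, chrX:155258235-155264491, minus strand). It had 38.9, 57.8 and 48.9 normalised counts in vehicle and 67.3, 71.4 and 70.1 in low dose libraries. At the medium dose the counts were 196, 206 and 212, and at the high dose 629, 607 and 662. The 4 groups did not overlap and were ordered by dose, the highest dose highest. The rise was 12.9-fold at the high dose (log2 fold change 3.69, SE 0.15, adjusted p = 1.74e-126) and 4.19-fold at the medium dose (log2 fold change 2.07, SE 0.16, adjusted p = 7.04e-36). At the low dose the log2 fold change was 0.51 (95% interval 0.15 to 0.86), and the gene's mean was under the limit at which that comparison gave an adjusted p. Its relative RAB39A stayed at a mean under 10.

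RAB32, which serves melanosomes and other lysosome-related organelles, rose to 1239, 1282 and 1170.1 at the high dose from 655, 682 and 672 in vehicle (ENSG00000118508, chr6:146543833-146554953, plus strand; log2 fold change 0.88, SE 0.0725, adjusted p = 1.67e-32). Its medium dose libraries (919, 829 and 830.2) lay between the 2 groups without overlap, and its low dose libraries (743, 697 and 614) surrounded the vehicle values. RAB38, its relative in pigment cells, had only 9.35 to 24.3 normalised counts in any library, and its change (log2 fold change 0.43, SE 0.51, adjusted p = 0.54) did not pass. RAB9B, which like RAB9A returns mannose 6-phosphate receptors from late endosomes to the Golgi, fell (ENSG00000123570, chrX:103822327-103832257, minus strand). It had 205, 179.6 and 185 in vehicle, 209.7, 241 and 212 with the low, 217, 183 and 182 with the medium and 120.4, 95.5 and 133 with the high dose. The high dose libraries lay below all the others (log2 fold change -0.71, SE 0.15, adjusted p = 1.02e-05). Without high dose replicate 2 the log2 fold change was -0.58, short of 1.5-fold. RAB9A did not pass (log2 fold change 0.15, 95% interval -0.022 to 0.33). RAB24, linked to autophagy, changed by less than 1.5-fold upward (log2 fold change 0.53, SE 0.0703, adjusted p = 4.01e-13), with 44.8% of its exon bases shared with MXD3 on the same strand. RAB36, linked to the placing of late endosomes and lysosomes, changed by less than 1.5-fold downward (log2 fold change -0.43, SE 0.0955, adjusted p = 3.01e-05). Of the 13 genes in the group, 12 were tested, with 2 called higher, 2 lower (RAB7B and RAB9B) and 6 more past the adjusted p alone, 4 of them higher.

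**Figure D2:**
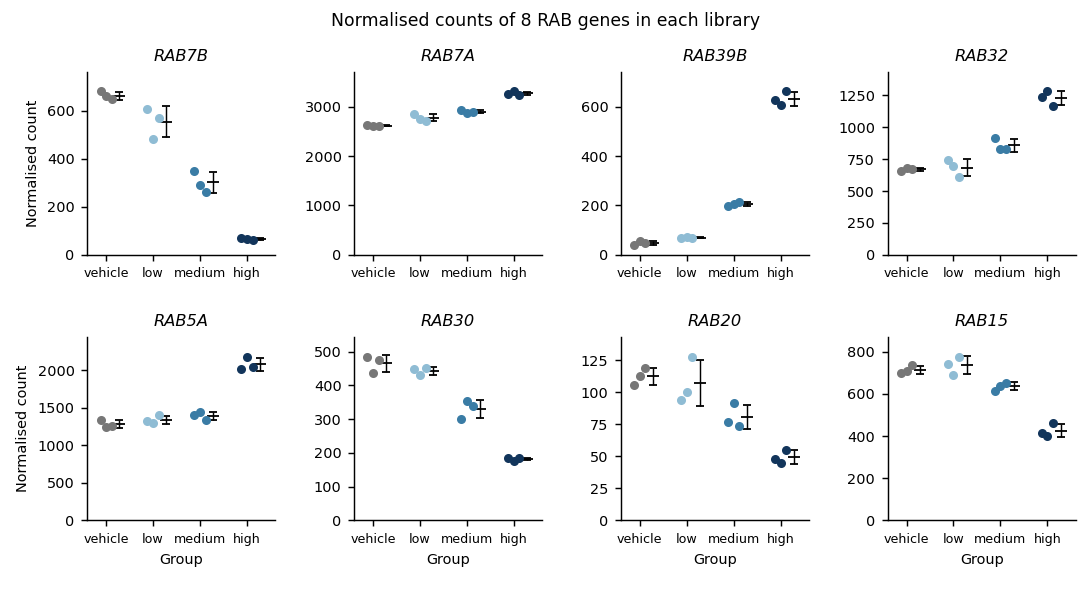
Normalised counts of 8 RAB genes in each of the 12 libraries (points) by group, with the mean and SD of each group (n = 3) beside them; each vertical axis starts at 0. RAB7B steps down and RAB39B steps up with each dose, while RAB5A stands apart at the high dose alone.

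In the ER and Golgi group, 3 of 11 tested genes rose and 1 fell at the high dose, where 18.2% of all genes were called in either direction. With groups this small, nothing is read from the counts of a role against that share. RAB30, a Golgi RAB, fell from 485, 436 and 475 in vehicle to 184, 177 and 184 at the high dose (ENSG00000137502, chr11:82973133-83071923, minus strand; log2 fold change -1.36, SE 0.10, adjusted p = 2.36e-37). Its medium dose counts of 300.2, 352 and 338 lay between, and those groups did not overlap. RAB33B, a Golgi RAB that binds the autophagy protein ATG16L1, rose from 226, 213 and 215 to 366, 383 and 405 (ENSG00000172007, chr4:139453232-139476609, plus strand; log2 fold change 0.82, SE 0.11, adjusted p = 1.91e-13). RAB33A, its relative known from brain and immune cells, rose as well, though from very few reads (ENSG00000134594, chrX:130171962-130184870, plus strand). Its counts were 8.20, 0.876 and 3.12 in vehicle and 28.9, 35.1 and 20.6 at the high dose, with no overlap (log2 fold change 2.83, SE 0.63, adjusted p = 2.92e-05). At this depth its fold change is loosely fixed, with a 95% interval of 1.59 to 4.07 on the log2 scale. Without vehicle replicate 1 the log2 fold change was 3.87, and without vehicle replicate 2 2.31. RAB43, another Golgi RAB, rose from 125, 153 and 188 to 309, 228 and 277 (ENSG00000172780, chr3:129087569-129122801, minus strand; log2 fold change 0.80, SE 0.19, adjusted p = 0.000118). Some 79.3% of its exon bases also belong to the readthrough gene ISY1-RAB43, so RSEM could split its reads and the value is uncertain. RAB2B, of the ER-Golgi route, changed by less than 1.5-fold (log2 fold change 0.47, SE 0.0854, adjusted p = 1.87e-07). RAB1A and RAB1B, the most abundant of the group per kilobase of exon, had log2 fold changes of -0.11 (adjusted p = 0.00628) and -0.31 (adjusted p = 1.53e-12).

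Among the 14 early and recycling endosome genes tested, RAB5A rose and RAB20 fell. RAB5A, which governs the fusion of incoming vesicles with early endosomes, went from 1335, 1239 and 1261 in vehicle to 2018, 2177 and 2039 at the high dose (ENSG00000144566, chr3:19947097-19985175, plus strand; log2 fold change 0.70, SE 0.0530, adjusted p = 9.15e-39). The low dose (1324, 1292 and 1396) and medium dose (1399, 1435 and 1331) libraries reached into the vehicle range, and every high dose library lay above them. RAB20, a RAB of phagosomes and endosomes, fell from 106, 113 and 119 to 47.5, 45.05 and 55.2 (ENSG00000139832, chr13:110523066-110561722, minus strand; log2 fold change -1.19, SE 0.21, adjusted p = 5.53e-08). RAB11A, the main RAB of slow recycling, and RAB14 were near 0 change, with 95% intervals of the log2 fold change of -0.088 to 0.080 and -0.11 to 0.052. RAB5C, the most abundant of the group per kilobase of exon, had a log2 fold change of -0.19 (adjusted p = 5.08e-06). The bases before the start of RAB5A are shown because it alone among the 50 RAB promoters held the CLEAR letters, an E-box between GT and AC. The E-box is in capitals (chr3:19946847-19947096, plus strand, GRCh38.p14, RefSeq).
RAB5A: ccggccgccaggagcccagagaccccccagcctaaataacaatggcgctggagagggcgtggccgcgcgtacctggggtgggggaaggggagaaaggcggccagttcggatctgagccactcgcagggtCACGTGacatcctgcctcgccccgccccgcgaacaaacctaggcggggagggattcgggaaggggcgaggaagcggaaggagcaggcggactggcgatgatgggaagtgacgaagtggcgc
An E-box was found in 5 of the 50 RAB promoters. A match of letters is a description of the window and not a measured binding site.

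The secretory and surface delivery group of 12 tested genes had 2 called genes, both lower. The place of RAB15 here, and not among the recycling genes, is only that of the list used. RAB15, known from the recycling of receptors to the cell surface, fell from 701, 707 and 737 to 414, 402 and 461 (ENSG00000139998, chr14:64945814-64973226, minus strand; log2 fold change -0.75, SE 0.0788, adjusted p = 2.84e-20). Its medium dose libraries (616, 638 and 654) lay below vehicle without overlap but did not pass the test (adjusted p = 0.0794). RAB37, of secretory granules, was called on few reads, with 11.3, 14.9 and 18.7 in vehicle and 4.63, 7.21 and 4.68 at the high dose (ENSG00000172794, chr17:74670578-74747335, plus strand; log2 fold change -1.43, SE 0.60, adjusted p = 0.0374). It lost its call under 12 of 20 alternatives, 8 of which left out 1 library, namely any high dose or low dose library or vehicle replicate 2 or 3 (log2 fold change -1.68 to -1.24), and 21.6% of its exon bases overlap an antisense gene. RAB27B, which docks secretory vesicles and exosome-bearing bodies, had 3068, 3079.5 and 2986 in vehicle and 4079.6, 4139.8 and 4054 at the high dose. Its change (log2 fold change 0.43, SE 0.0350, adjusted p = 7.93e-33) passed the adjusted p but not the fold. RAB27A, with a like role, changed the opposite way (log2 fold change -0.40, SE 0.0670, adjusted p = 1.33e-08). Besides the 2 called genes, both lower, 7 genes of the group passed the adjusted p without reaching 1.5-fold. Of these, 4 were higher, RAB27B among them, and 3 lower, RAB27A among them. The group's summed normalised count was 13598 ± 76.3 in vehicle and 14404 ± 74.2 at the high dose. RAB27B weighs heavily in that sum, with 3044 ± 51.1 in vehicle and 4091 ± 44.1 at the high dose. The median log2 fold change over the group's genes with a mean of at least 10 was -0.28. RAB37 and RAB26 passed that filter only through their vehicle and low dose libraries, so this median is a description of the genes that passed.

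The cilium genes RAB23 and RAB28 were both tested. RAB23, a brake on Hedgehog signalling, changed by less than 1.5-fold upward, from 1021, 1069.7 and 1041 to 1459, 1559.5 and 1545 (log2 fold change 0.54, SE 0.0549, adjusted p = 4.10e-22), with 57.8% of its exon bases antisense to BAG2. RAB28 did not pass (log2 fold change 0.079). The RAB40 genes encode adaptors that bring targets to a ubiquitin ligase, and RAB40B and RAB40C went opposite ways. RAB40B fell from 267, 289 and 278 to 199, 177 and 182 (ENSG00000141542, chr17:82654973-82698698, minus strand; log2 fold change -0.59, SE 0.12, adjusted p = 3.65e-06), close to the fold threshold. It lost its call under 6 of 20 alternatives, namely with a replicate block, with a test against a 1.5-fold change, and without high dose replicate 2 (-0.55), high dose replicate 3 (-0.57), vehicle replicate 2 (-0.56) and medium dose replicate 2 (-0.58). RAB40C had 317, 329 and 311 in vehicle and 429, 425 and 457 at the high dose (log2 fold change 0.46, SE 0.0962, adjusted p = 8.54e-06), short of 1.5-fold.

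**Figure D3:**
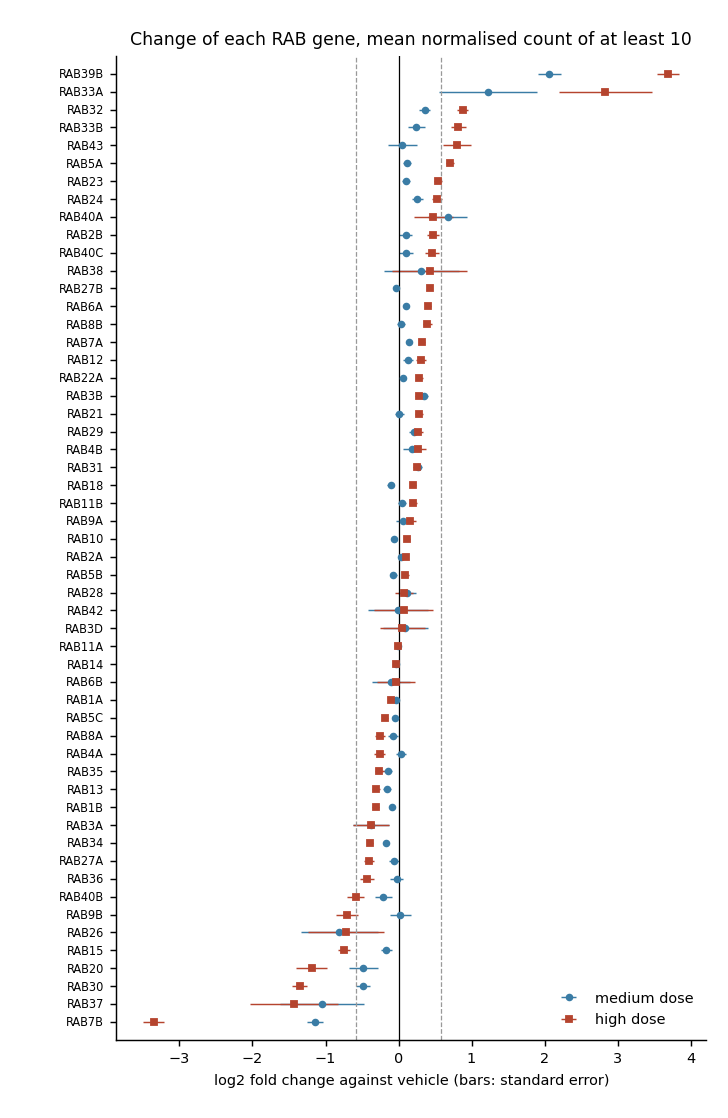
Log2 fold change against vehicle of the 54 RAB genes at the medium dose (circles) and the high dose (squares), with standard errors as bars and dashed lines at a 1.5-fold change. At the high dose most genes lie between the dashed lines, and RAB39B and RAB7B lie farthest out.

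At the medium dose, 3 of 50 RAB genes tested were called, against 3.81% of all genes, and without RAB7B 2 of 49. They were RAB39B and RAB7B, with the values above, and RAB40A. RAB40A (ENSG00000172476, chrX:103499130-103519489, minus strand, 13.5% of its exon bases antisense to another gene) had 35.9, 55.2 and 37.5 normalised counts in vehicle, 59.1, 65.2 and 81.04 with the medium and 72.9, 59.5 and 48.6 with the high dose. Its medium dose libraries lay above vehicle (log2 fold change 0.67, SE 0.26, adjusted p = 0.0366), while at the high dose the groups overlapped and the change did not pass (log2 fold change 0.48, SE 0.26, adjusted p = 0.132). The medium dose call was lost under 10 of 20 alternatives, 6 of which left out 1 library: high dose replicate 2, low dose replicate 1, medium dose replicate 2 or 3, or vehicle replicate 1 or 3 (log2 fold change 0.53 to 0.71). At any fold, 15 of the 50 had an adjusted p under 0.05, beside 29.5% of all genes, among them RAB3B of synaptic vesicles (log2 fold change 0.34, SE 0.0569, adjusted p = 2.64e-08), RAB32 (log2 fold change 0.36, SE 0.0742, adjusted p = 1.53e-05) and RAB30 (log2 fold change -0.49, SE 0.0959, adjusted p = 4.26e-06). RAB3B was named after its value had been seen.

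At the low dose, none of the 39 RAB genes tested was called by DESeq2, and 0 of 54 by edgeR's quasi-likelihood test. Among all genes 0.118% were called. At an unadjusted p under 0.05, 6 of 62 RAB genes passed, beside 5.01% of all genes. DESeq2's independent filtering left genes with a mean under 263 without an adjusted p in this comparison.

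Between the high and medium doses, 7 of 54 RAB genes tested were called, against 10.2% of all genes, and without RAB7B 6 of 53. RAB39B (log2 fold change 1.63, SE 0.11, adjusted p = 2.22e-44), RAB33A (log2 fold change 1.60, SE 0.55, adjusted p = 0.0112) and RAB43 (log2 fold change 0.75, SE 0.19, adjusted p = 0.000409) were higher at the high dose. RAB30 (log2 fold change -0.87, SE 0.11, adjusted p = 8.68e-15), RAB9B (log2 fold change -0.74, SE 0.15, adjusted p = 6.34e-06) and RAB20 (log2 fold change -0.71, SE 0.21, adjusted p = 0.00322) were lower. RAB7B was 4.63-fold lower as well. The call of RAB33A was lost without high dose replicate 2 (log2 fold change 1.41) and without medium dose replicate 3 (1.34). The comparisons share libraries, so their values are set side by side and not counted as independent. At any fold, 35 of the 54 had an adjusted p under 0.05, beside 40.9% of all genes.

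RAB genes with the same number are close relatives, and the makeup of such sets is described here. The share of each relative in its set was taken from normalised counts per kilobase of exon, as mean ± SD over 3 libraries. RAB7B made up 33.1% ± 0.445 of the RAB7 set in vehicle, 27.98% ± 2.13 with the low, 16.8% ± 1.959 with the medium and 3.75% ± 0.300 with the high dose. Within the RAB5 set, RAB5A went from 16.3% ± 0.453 to 25.97% ± 1.69 at the high dose, and RAB5C from 71.6% ± 0.400 to 61.4% ± 2.19. RAB5B was at 12.1% ± 0.258, with 12.6% ± 0.557 at the high dose, and its vehicle and high dose libraries overlapped. RAB27A went to 8.71% ± 0.0352 of its pair from 14.5% ± 0.238, while its vehicle, low and medium dose shares lay between 13.7% and 15.5% in every library. RAB8A, which with RAB8B feeds the cell surface and the cilium, went from 49.1% ± 2.19 to 38.1% ± 1.50 of its pair, and 39.7% of its exon bases overlap an antisense gene. RAB9B went from 21.9% ± 1.27 to 13.4% ± 2.22, RAB40B from 34.2% ± 0.702 to 20.1% ± 0.828 and RAB40C from 57.8% ± 1.35 to 69.8% ± 2.68. In each of the 13 sets 2 relatives had shares that did not overlap between the high and vehicle libraries. A lack of overlap thus does not set the named genes apart. In a set of 2 the shares add up to the whole, so each follows from the other. RAB1A, at 31.4% ± 0.755 of its pair in vehicle and 34.6% ± 0.629 at the high dose, shifted less. So did the RAB2, RAB6 and RAB11 sets. The sets named first are a selection, and others shifted too. RAB33A went from 8.02% ± 6.73 to 26.6% ± 5.77 of its pair, on few reads. RAB4B went from 27.4% ± 1.91 to 35.3% ± 2.88, and RAB3B from 72.5% ± 1.54 to 79.5% ± 1.95. With 3 against 3 libraries an exact permutation test cannot go below p = 0.1, and none was run on the shares. Reads that fit both of 2 relatives were divided by RSEM, which limits these shares.

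**Figure D4:**
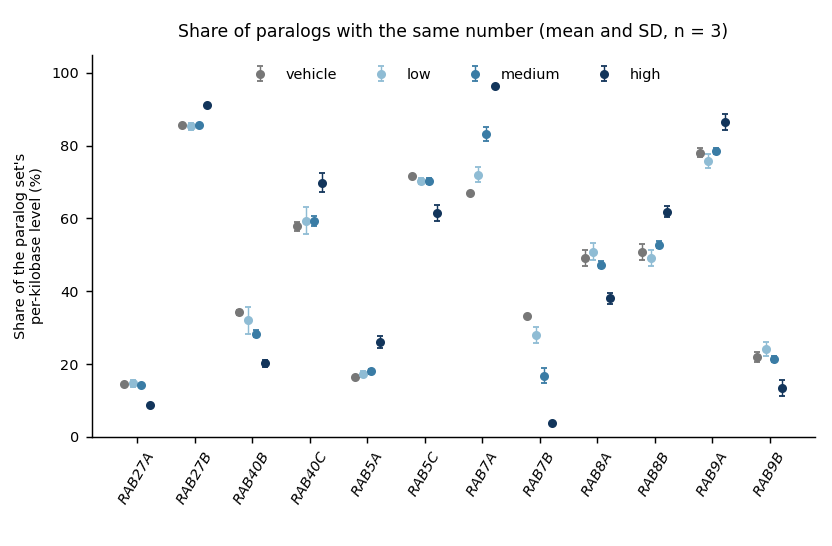
Share of 12 RAB genes in their set of same-numbered relatives, in percent of the set's normalised counts per kilobase, by group (mean and SD, n = 3). The RAB7B share is lower and the RAB7A share higher at each higher dose. The RAB5, RAB8, RAB9, RAB27 and RAB40 sets part mainly at the high dose. The RAB1, RAB2, RAB3, RAB4, RAB6, RAB11 and RAB33 sets are not drawn.

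The genes that switch, tether and read RABs were counted from lists of activators, inactivators, prenylation and extraction factors, effectors and the HOPS and retromer complexes. At the high dose 31 of 139 tested genes on these lists were called, 22 higher and 9 lower, beside 18.2% of all genes. The called share was 32.4% of the activators, 10.8% of the inactivators and 31.1% of the effectors. Of 37 activators tested, 8 rose and 4 fell. RAB3IL1, which activates RAB3A, rose from 86.1 ± 2.23 to 341 ± 13.97 (log2 fold change 1.99, SE 0.14, adjusted p = 1.85e-44). C9orf72, which forms a complex with SMCR8, rose from 234 ± 15.3 to 612 ± 51.7 (log2 fold change 1.39, SE 0.10, adjusted p = 7.31e-39). The place of C9orf72 and SMCR8 among the activators is only that of the list used here. HPS4, which with HPS1 activates RAB32 and RAB38, rose from 766 ± 42.9 to 1534 ± 21.7 (log2 fold change 1.00, SE 0.0600, adjusted p = 8.52e-61). RIN1, an activator of RAB5, fell from 681 ± 48.1 to 234 ± 34.7 (log2 fold change -1.54, SE 0.10, adjusted p = 7.66e-50), and RIN2, of the same family, from 984 ± 27.4 to 559 ± 30.7 (log2 fold change -0.82, SE 0.0670, adjusted p = 4.77e-33). DENND2B, of the DENN domain activators, fell from 1272 ± 15.1 to 534 ± 26.99 (log2 fold change -1.25, SE 0.0614, adjusted p = 8.00e-91). MON1A, MON1B and CCZ1, which together activate RAB7A, were looked up after their values had been seen, and their log2 fold changes of 0.22, 0.30 and 0.32 did not reach 1.5-fold. CCZ1 has a near copy, CCZ1B, with which it can share reads.

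Of 37 inactivators tested, 3 rose and 1 fell. TBC1D15, an inactivator of RAB7A, rose from 742 ± 64.5 to 1439 ± 75.4 (log2 fold change 0.96, SE 0.0715, adjusted p = 1.72e-39), and TBC1D17 rose from 452 ± 44.5 to 834 ± 29.9 (log2 fold change 0.88, SE 0.0845, adjusted p = 2.66e-24). TBC1D4, known for holding back RAB10 and the glucose transporter of insulin-responsive cells, fell from 1235 ± 24.3 to 769 ± 22.4 (log2 fold change -0.68, SE 0.0641, adjusted p = 2.11e-25). None of the 10 genes for prenylation, extraction and phosphorylation was called by DESeq2 or edgeR. By DESeq2, 7 of them had an unadjusted p under 0.05, beside 32.3% of all genes, which include genes with few counts. Among all genes with a mean of at least 100, 67.3% passed even the adjusted p. Of 45 effectors tested, 10 rose and 4 fell. MICALL1, of recycling endosomes, rose from 1335 ± 14.5 to 2841 ± 148 (log2 fold change 1.09, SE 0.0512, adjusted p = 1.21e-98). OPTN, an autophagy receptor that binds RAB8, rose from 1197 ± 26.8 to 2371 ± 31.6 (log2 fold change 0.98, SE 0.0460, adjusted p = 5.38e-100). RILPL1, which binds phosphorylated RAB8A and RAB10, rose from 280.2 ± 43.2 to 556 ± 17.1 (log2 fold change 0.99, SE 0.10, adjusted p = 3.09e-20), with 23.8% of its exon bases antisense to another gene. The RAB27 effectors SYTL2 and SYTL5 fell, SYTL2 from 1349 ± 20.9 to 377 ± 34.1 (log2 fold change -1.84, SE 0.0729, adjusted p = 1.27e-138) and SYTL5 from 1057 ± 30.3 to 469 ± 30.3 (log2 fold change -1.17, SE 0.0679, adjusted p = 2.04e-65). Some other RAB27 effectors, named after their values had been seen because their means were under 100, rose from few reads. SYTL1 went from 9.84 ± 3.02 to 40.6 ± 5.63 (log2 fold change 2.06, SE 0.41). EXPH5 went from 19.04 ± 3.88 to 98.01 ± 8.46 (2.36, SE 0.30), and UNC13D from 4.50 ± 1.20 to 13.6 ± 1.90 (1.60, SE 0.66). SYTL3 (log2 fold change -0.12), SYTL4 (-0.43) and MLPH (0.25), also named after their values had been seen, were not called. PLIN3, a lipid droplet protein also described as a RAB9 effector, fell from 2143 ± 43.99 to 1106 ± 30.98 (log2 fold change -0.95, SE 0.0511, adjusted p = 8.27e-76), with 18.3% antisense overlap. Of the 10 HOPS and retromer genes only VPS26A, a retromer subunit, was called, rising from 1826 ± 59.8 to 3094 ± 49.5 (log2 fold change 0.76, SE 0.0411, adjusted p = 9.25e-75). At the medium dose 6 of 134 list genes were called, beside 3.81% of all genes: RAB3IL1, MICALL1, SYTL1 and EXPH5 rose, and SYTL2 and DENND2C fell. At the low dose 0 of 114 were called by DESeq2, beside 0.118% of all genes, and 0 of 137 by edgeR. By DESeq2, 22 of 141 had an unadjusted p under 0.05, beside 5.01% of all genes. That share was taken over genes at any level, including those with few counts, so nothing is read from the 2 side by side.

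**Figure D5:**
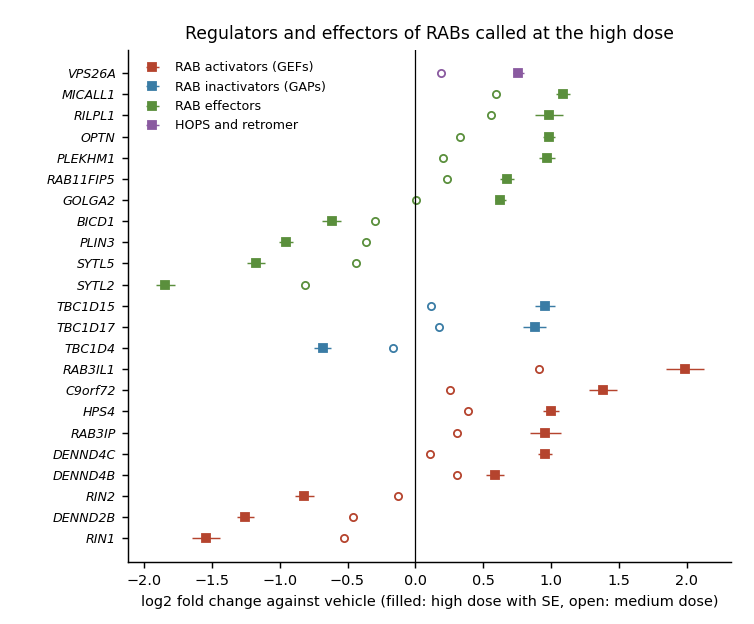
Log2 fold change against vehicle of the 23 regulators and effectors called at the high dose whose mean normalised count was 100 or more (filled squares with standard errors), with the medium dose value as an open circle. RAB3IL1 rises and SYTL2 falls farthest, and the medium dose values lie nearer to 0 than those at the high dose.

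The libraries held 18863863 to 24200576 counts in total. Of 11 astrocyte and glioma markers, GFAP, S100B, AQP4, ALDH1L1 and SLC1A2 had a mean under 10, with AQP4 at 0 in every library, while VIM, CD44, GJA1 and SOX9 were well expressed, so several defining markers of astrocytes were absent or nearly so. The sum of the 11 lay between 149381 and 156875 in vehicle and between 156063 and 157735 at the high dose, a sum carried by VIM and CD44. Within it, SLC1A3 and NES fell by the same call rule as above: SLC1A3 went from 690.1 ± 21.8 to 126 ± 4.28 and NES from 214 ± 11.6 to 64.7 ± 7.21. Markers of other cell types moved as well. The summed normalised count of 4 epithelial markers lay between 4861 and 5073 in vehicle libraries and between 1797 and 1888 at the high dose, almost all from KRT8 and KRT18, with EPCAM and CDH1 near 0. The sum of 4 neuron markers lay between 894 and 916 in vehicle and between 480.4 and 532 at the high dose, with RBFOX3 under 10. Within it SNAP25 fell, from 704 ± 20.4 to 167 ± 13.6, and MAP2 rose, from 181 ± 7.57 to 322 ± 13.3. The sum of 4 oligodendrocyte markers lay between 138 and 172 in vehicle and between 260.0 and 263 at the high dose, carried by MBP. The sum of 4 immune markers lay between 3149 and 3316 in vehicle and between 3944 and 4229 at the high dose, mostly CD68, with AIF1 near 0. CD68, which went from 2864 ± 91.03 to 3953 ± 153, was not called, while PTPRC fell from 275 ± 15.6 to 84.8 ± 19.8 and CSF1R from 67.97 ± 8.29 to 30.9 ± 3.36. The 3 endothelial markers had a mean under 10 each. The part of these markers in the changes of the RAB genes was not tested.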

How the data were processed

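Total RNA of 12 SW1783 samples was sequenced as directional mRNA libraries with paired ends. The authors checked the reads with FastQC, trimmed them with Trim Galore, aligned them to GRCh38 with STAR and counted them with RSEM. RSEM's strand setting is not given in the sources used here. The values the authors deposited are expected counts per gene from RSEM, which divide shared reads among genes and need not be whole (8.75% were not). They were rounded here. No columns were left unused, since each matched its library through the code in the sample's description.

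Gene symbols, biotypes, coordinates (1-based) and exon lengths came from GENCODE v44 on GRCh38, a different annotation from the one counted on, which held 93.2% of the IDs. Promoters came from RefSeq on GRCh38.p14, and 50 of the 63 members matched. DESeq2 1.42.0, run in R 4.3.3, fitted all 12 libraries with group as the sole factor and tested each gene by its Wald test (two-sided), as named by the authors. Genes were called at a Benjamini-Hochberg adjusted p under 0.05 over all genes and a fold change over 1.5. Values are normalised counts, as mean ± SD over n = 3, and intervals are 95% Wald intervals. Library totals ranged from 18863863 to 24200576, and replicates differed by more than counting noise (chi-square per degree of freedom 1.99 to 3.55). The fit was tested on simulated data. Alternatives were edgeR 4.0.16, other scaling, filters and thresholds, a replicate block and leaving out each library.

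The members and lists were chosen with earlier results of these data known. Named were RAB7B and RAB7A, every member called in any comparison, the 5 highest levels per kilobase, the 6 largest changes past the adjusted p alone, and up to 3 regulators each way per list with a mean of at least 100; exceptions are marked. RAB1A, RAB1B and RAB5C are named again by their levels; RAB9A, RAB11A, RAB14, RAB27A, RAB28 and RAB38 were added to give their relatives or groups context after values were seen, as were BRCC3 and other neighbours.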

Additional observations from a re-analysis of the deposited data

How the results depend on the processing

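None of the 30 named results changed direction under any alternative. Of the repeats, 551 kept their side of the threshold, 41 lost a call, 7 gained one and 1 moved. All 7 gains came by the adjusted p alone, in genes that had passed it short of 1.5-fold, so they were fixed in advance. Under that setting no called gene could lose its call, so those repeats say nothing about stability. The repeats of RAB7B are counted in and are a description. With a Wald test against a 1.5-fold change, 6 RAB genes were called at the high dose in place of 13, and 2 in place of 7 between the high and medium doses; that test asks for more than the fold threshold does. By the adjusted p alone, 41 were called with the high and 15 with the medium dose, and 35 between the high and medium doses. Leaving out each library in turn gave 10 to 13 calls with the high, 2 to 3 with the medium and 0 with the low dose, and 6 to 9 between the high and medium doses. RAB7B at the medium dose had a log2 fold change of -1.26 without medium dose replicate 1, beside -1.14 with all libraries. Whether the replicate numbers pair the libraries was not settled. Deviations of same-numbered libraries correlated from -0.118 to 0.221 over 18 pairs (median -0.013). Those of differently numbered libraries correlated from -0.158 to 0.098 over 36 pairs (median -0.0010), and 6 of 12 libraries correlated best with their own number. With the replicate number as a block, 11 RAB genes were called with the high, 2 with the medium and 0 with the low dose, 7 between the high and medium doses, and 28 regulators with the high dose. Of the 9 members with a mean under 10, RAB17 alone had an adjusted p at the high dose (0.164), and the low dose comparison gave no adjusted p under a mean of 263.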

Other observations

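The expressed neighbours within 250 kb of the 2 RAB genes that changed most did not share their size of change at the high dose. Beside RAB7B, SRGAP2 had a log2 fold change of -0.022, RAB29, a RAB tied to the kinase LRRK2, 0.27, SLC41A1, a magnesium carrier, 0.16, FAM72A -0.41 and NUCKS1 -0.47 (SE 0.0352). Beside RAB39B, BRCC3, a deubiquitinase, was lower (log2 fold change -0.58, SE 0.0637, DESeq2 adjusted p = 7.66e-19) without reaching 1.5-fold, and F8, FUNDC2, CMC4, MTCP1, VBP1 and TMLHE lay between -0.36 and 0.061. The neighbours were looked up after the values of the RAB genes had been seen, and nothing was tested on them as a group.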
